A study of Homo sapiens with 4 samples.

Results

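This account sets YAP/TAZ knockdown alone against 8Br-cAMP alone in KGN, a line of human granulosa cells established from an ovarian granulosa tumour. It rests on 2 of the 4 arrays of the study. In the array called siYT, the cells had received siRNAs against YAP and TAZ (5 nM of each) and no 8Br-cAMP. In the array called siNC+8Br-cAMP, they had received control siRNA (10 nM) and, from 48 h after transfection, 0.5 mM 8Br-cAMP for 24 h. The other two arrays are shown beside them: siYT+8Br-cAMP received both treatments, and siNC received control siRNA and no 8Br-cAMP. All groups were the same cell line, went through a transfection and had their medium replaced 48 h later. Each group is 1 Clariom S Human array, so the pair compared differs in both the siRNA and 8Br-cAMP, and nothing here measures the spread between cultures. All 17687 genes with a probe set that names exactly 1 gene were compared. Levels are deposited log2 values, and a difference is the siYT value minus the siNC+8Br-cAMP value on that log2 scale.

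YAP and TAZ are transcriptional coactivators that the kinases of the Hippo pathway restrain. They have no DNA-binding domain of their own and act mostly through TEAD factors, which bring them to genes of the matrix, the cytoskeleton and the cell cycle. Cyclic AMP is the messenger of the gonadotropins FSH and LH in granulosa cells. It activates protein kinase A, which phosphorylates the factor CREB, and it drives genes of steroid synthesis and ovulation. 8Br-cAMP is an analogue of cyclic AMP that enters cells, so it acts without a receptor. In several other cell types protein kinase A is known to raise the activity of the Hippo kinases LATS1 and LATS2.

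Between the single treatments, genes of cell division and the best known YAP/TAZ targets were lower in siYT, as were DIO2, IL11, STAR and PDE4D. MGP, LUM, FN1 and other matrix genes were higher in siYT. CYP19A1, CYP11A1 and ID2 lay at nearly the same level in both, far above siNC. A gene was called when its values on the 2 arrays were 1 or more apart (2-fold) and the higher one reached 6.22, the median of all gene values over the 4 arrays. Of 17687 genes, 1059 (5.99%) were called higher in siYT and 1222 (6.91%) lower. The median difference over all genes was 0.06, and the 5th and the 95th percentile lay at -1.27 and 1.24. Of the 9404 genes that reached the level filter on either array, 2281 (24.3%) were called in either direction and 2346 (24.9%) differed by less than 0.25. Counts of called list members are to be read against 12.9% of all genes and 24.3% of those past the filter. In RNA pooled over all cells, fewer cells of a kind and less of an RNA per cell cannot be told apart.

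With no replicate, the array's own control probe sets give the only view of how far 2 arrays part. The 612 negative control probe sets lay low, with a median level of 3.67 in siYT and 3.53 in siNC+8Br-cAMP. Of these, 63 (10.3%) met the call rule, 45 of them higher in siYT and 18 lower. A difference of at least 4 that met the level filter was seen for 36 genes (0.204%) and for 13 negative controls (2.12%). The 2197 positive control probe sets had a median level of 11.59 in siYT and 12.002 in siNC+8Br-cAMP, with a median difference of -0.39, and 406 of them (18.5%) met the call rule, 372 of those lower. A single call is therefore a size without an error, and how many calls another pair of cultures would repeat was not measured. The medians of the 4 arrays ran from 6.20 to 6.27. Genes with a mean level of 14 or more had a median difference of -0.11, and genes under 4 one of 0.13.

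**Figure D1:**
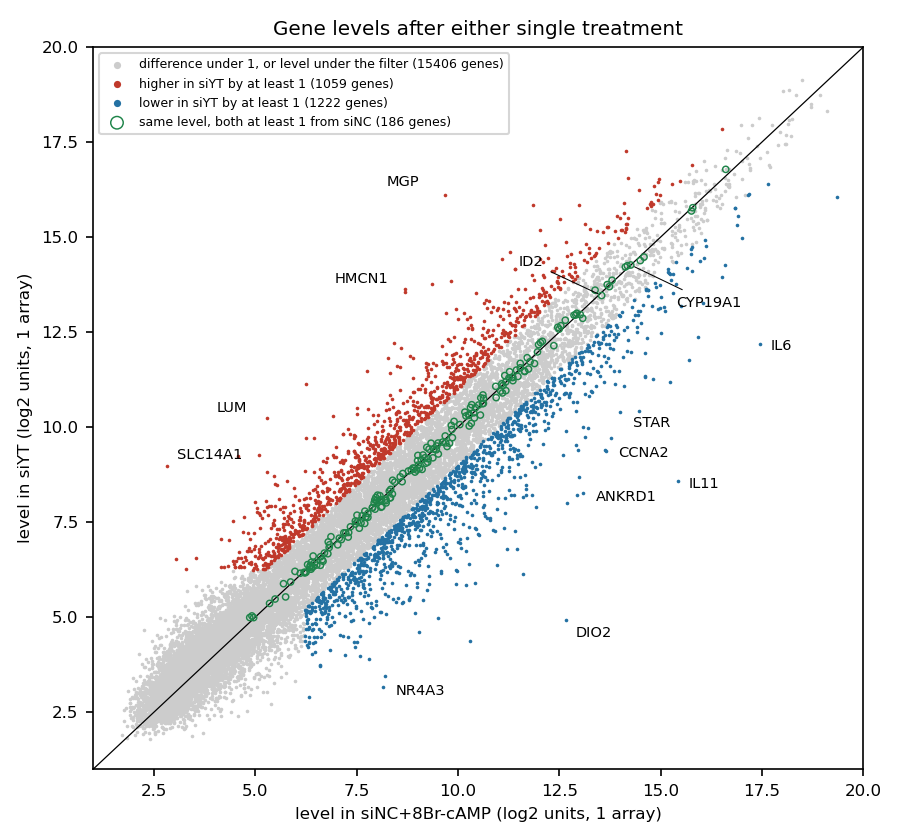
Level of each of 17687 genes in siYT (vertical axis) against siNC+8Br-cAMP (horizontal axis), in deposited log2 units, 1 array each. Red points are the 1059 genes called higher in siYT and blue points the 1222 called lower, and green rings mark 186 genes at the same level that stand at least 1 from siNC. The called genes spread to both sides of the diagonal, out to MGP above it and DIO2 below it.

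The targets of the siRNAs check the labels. YAP1, which encodes YAP, was at 6.80 in siYT, 9.46 in siNC+8Br-cAMP, 6.29 in siYT+8Br-cAMP and 9.48 in siNC. WWTR1, which encodes TAZ, was at 5.45 in siYT, 9.13 in siNC+8Br-cAMP, 5.35 in siYT+8Br-cAMP and 7.58 in siNC. Both siYT arrays were lower than both siNC arrays for both genes, and WWTR1 was 1.55 higher in siNC+8Br-cAMP than in siNC. As for the label of the cells, 5 of 9 measured granulosa markers reached the level filter on at least 1 array. In siNC, GATA4 (9.88) and INHBA (11.36) were past the filter. CYP19A1 (5.04), FSHR (3.82) and NR5A1 (5.42) were under it in siNC and reached it only on treated arrays. FOXL2, a transcription factor of granulosa cells, stayed between 4.13 and 5.14, and LHCGR, the LH receptor, between 3.99 and 4.07, under the filter on all arrays. None of 7 oocyte and germ cell markers, 1 of 7 endothelial, 1 of 8 immune and 2 of 7 epithelial markers reached the filter. The immune one was CD68, at 12.69 in siYT and 10.33 in siNC+8Br-cAMP, and the epithelial ones were the keratins KRT18, at 12.38 in siYT and 15.92 in siNC+8Br-cAMP, and KRT8, at 9.54 in siYT and 9.57 in siNC+8Br-cAMP. Of 8 theca and stromal fibroblast markers, 5 reached the filter and 4 were called higher in siYT, with a mean level of 9.06 in siYT, 7.22 in siNC+8Br-cAMP, 8.30 in siYT+8Br-cAMP and 7.42 in siNC. These include DCN, LUM and PDGFRA, and the part of another cell type in the matrix results below was not tested.

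The genes highest in siYT included several matrix proteins. MGP, an extracellular inhibitor of calcification, was the gene with the highest difference and lay at 16.12 in siYT, 9.67 in siNC+8Br-cAMP, 14.11 in siYT+8Br-cAMP and 9.83 in siNC. It was 87.3-fold higher in siYT than in siNC+8Br-cAMP, where it lay near siNC. SLC14A1, a urea transporter, was at 8.98 in siYT, 2.81 in siNC+8Br-cAMP, 4.49 in siYT+8Br-cAMP and 2.62 in siNC. LUM, a small proteoglycan that binds collagen, was at 10.23 in siYT and 5.28 in siNC+8Br-cAMP, and DCN, of the same family, was at 9.23 in siYT and 4.56 in siNC+8Br-cAMP. HMCN1, a large protein of basement membranes, was at 13.63 in siYT, 8.70 in siNC+8Br-cAMP, 13.31 in siYT+8Br-cAMP and 7.86 in siNC. The level of HMCN1 in siYT+8Br-cAMP was thus close to that in siYT. ANTXR2, a receptor that binds matrix proteins, was at 13.77 in siYT and 9.36 in siNC+8Br-cAMP, and GPNMB, a transmembrane glycoprotein, at 15.83 in siYT and 11.86 in siNC+8Br-cAMP. FAIM2, which inhibits death signalling by the receptor Fas, was at 11.13 in siYT, 6.24 in siNC+8Br-cAMP, 11.49 in siYT+8Br-cAMP and 4.17 in siNC. FILIP1L, named for its likeness to a protein that interacts with filamin, was at 13.85 in siYT and 9.83 in siNC+8Br-cAMP. The 12 highest genes also hold TNC, HSD11B1 and GBP2, described with their groups. In 4 of the 12 the siNC+8Br-cAMP value lay under the level filter, so the size of the difference depends on the background.

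At the other end, DIO2, the enzyme that converts thyroxine to active thyroid hormone, was at 4.91 in siYT, 12.66 in siNC+8Br-cAMP, 13.69 in siYT+8Br-cAMP and 6.54 in siNC. Both arrays with 8Br-cAMP were high for DIO2 and both without it were low. IL11, a cytokine of the IL6 family, was at 8.57 in siYT, 15.44 in siNC+8Br-cAMP, 13.82 in siYT+8Br-cAMP and 9.84 in siNC, and was 116-fold lower in siYT than in siNC+8Br-cAMP. SLC7A8, an amino acid transporter, was at 4.36 in siYT, 10.31 in siNC+8Br-cAMP, 8.19 in siYT+8Br-cAMP and 5.41 in siNC. ALPL, an alkaline phosphatase, was at 7.99 in siYT, 12.69 in siNC+8Br-cAMP, 13.31 in siYT+8Br-cAMP and 6.49 in siNC, and CYP2S1, a cytochrome P450, was at 6.78 in siYT, 11.45 in siNC+8Br-cAMP, 13.32 in siYT+8Br-cAMP and 7.45 in siNC. These 4 genes and DIO2 were higher on both 8Br-cAMP arrays than on both arrays without it. IL7R, a cytokine receptor, followed another order, at 8.21 in siYT, 12.93 in siNC+8Br-cAMP, 9.24 in siYT+8Br-cAMP and 13.73 in siNC: both siNC arrays were high. Of the 12 lowest genes, 5 had a siYT value under the level filter.

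**Figure D2:**
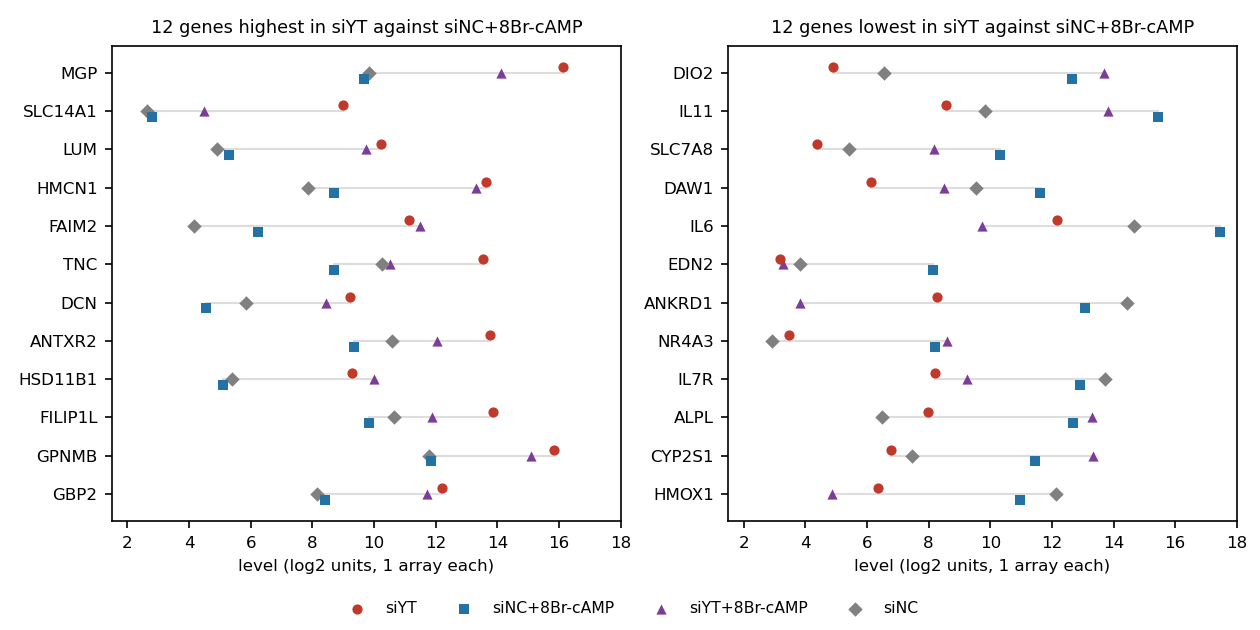
Levels of the 12 genes highest (left) and the 12 lowest (right) in siYT against siNC+8Br-cAMP, in deposited log2 units, 1 array each; circles are siYT, squares siNC+8Br-cAMP, triangles siYT+8Br-cAMP and diamonds siNC. On the left, the square lies within 1 of the diamond except for FAIM2, TNC, DCN and ANTXR2; on the right, DIO2, SLC7A8, ALPL and CYP2S1 have the square and the triangle high, while ANKRD1, IL7R and HMOX1 have the square and the diamond high.

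The called genes were also placed by which single treatment stood away from siNC. Both distances are taken from the same siNC array, and their difference is the compared value itself, so these counts are a description and siNC is no independent check. Of the 1059 genes called higher, 588 (55.5%) had siYT at least 1 above siNC with siNC+8Br-cAMP within 1 of it. For 130 (12.3%) siNC+8Br-cAMP was at least 1 below siNC and siYT was within 1. Of the 1222 called lower, 564 (46.2%) had only siYT at least 1 below siNC, and 191 (15.6%) had only siNC+8Br-cAMP at least 1 above it. In 255 of the higher and 301 of the lower genes neither array was 1 away from siNC, so the call came from smaller distances on either side.

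In some genes the single treatments lay on opposite sides of siNC, each at least 1 away. TNC, the matrix protein tenascin C, was at 13.55 in siYT, 8.69 in siNC+8Br-cAMP, 10.50 in siYT+8Br-cAMP and 10.27 in siNC. LOXL1, an enzyme that cross-links elastin, was at 15.84 in siYT, 12.97 in siNC+8Br-cAMP, 13.71 in siYT+8Br-cAMP and 14.34 in siNC. With both treatments, TNC and LOXL1 lay between the single treatments and within 1 of siNC. SVIL, an actin-binding protein, was at 7.75 in siYT, 5.10 in siNC+8Br-cAMP, 5.34 in siYT+8Br-cAMP and 6.53 in siNC, where siYT+8Br-cAMP lay near siNC+8Br-cAMP. DCN, TAX1BP3 and CCDC74A complete the 6 such genes with the greatest distances that were higher in siYT. IL6, an inflammatory cytokine, was at 12.18 in siYT, 17.45 in siNC+8Br-cAMP, 9.75 in siYT+8Br-cAMP and 14.67 in siNC. With both treatments IL6 was thus lower than with either, whereas SGK1, a kinase induced by hormones and serum, was at 11.19 in siYT, 15.23 in siNC+8Br-cAMP, 15.38 in siYT+8Br-cAMP and 13.51 in siNC. CPM, a carboxypeptidase of the cell surface, was at 5.11 in siYT, 8.93 in siNC+8Br-cAMP, 10.79 in siYT+8Br-cAMP and 7.04 in siNC, likewise highest with both treatments. BEX1 was at 6.79 in siYT, 11.20 in siNC+8Br-cAMP, 8.43 in siYT+8Br-cAMP and 9.27 in siNC. DAW1, which serves the assembly of ciliary dynein, and JKAMP were the others of the 6 lower ones, with differences of -5.47 and -3.39.

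The YAP/TAZ targets were drawn from the widely used target signature of these coactivators. Of 19 measured, 9 were called lower in siYT than in siNC+8Br-cAMP and 1 higher, with a median difference of -0.81 beside 0.06 over all genes. ANKRD1, a nuclear and sarcomeric ankyrin repeat protein, was at 8.28 in siYT, 13.08 in siNC+8Br-cAMP, 3.81 in siYT+8Br-cAMP and 14.42 in siNC. CCN2, a secreted matricellular protein, was at 10.42 in siYT, 14.47 in siNC+8Br-cAMP, 8.88 in siYT+8Br-cAMP and 15.67 in siNC, and its relative CCN1 was at 9.53 in siYT, 12.92 in siNC+8Br-cAMP, 7.49 in siYT+8Br-cAMP and 14.10 in siNC. For these 3 genes siNC+8Br-cAMP minus siNC was between -1.34 and -1.19, siYT lay far lower, and siYT+8Br-cAMP was the lowest array. F3, the tissue factor that starts coagulation, was at 9.99 in siYT and 13.09 in siNC+8Br-cAMP. IGFBP3, which binds insulin-like growth factors, was at 14.12 in siYT and 15.78 in siNC+8Br-cAMP. MYOF, at 11.11 in siYT and 10.19 in siNC+8Br-cAMP, and FJX1, at 8.37 in siYT and 9.17 in siNC+8Br-cAMP, missed the size threshold on either side. The median of the list was -1.05 for siYT minus siNC and -0.26 for siNC+8Br-cAMP minus siNC, which share the siNC array.

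The 250 bases before the starts of named genes were searched on both strands for GGAATG, the core that TEAD factors bind. CCN2 and ANKRD1 are shown because they held it. F3, IGFBP3, MYOF and FJX1 of the same signature had no match there. SLC14A1 and FILIP1L, among the 12 highest genes in siYT, did have a match. CCN2 had 3 matches, 169, 104 and 95 bases before its start, and ANKRD1 had 2, at 220 and 128 bases. A match is a run of letters and not a proven site. The sequences are from RefSeq (GRCh38.p14), 5′ to 3′ on the strand of the gene, with every match to a searched motif in capitals. In CCN2 (chr6:131951373-131951622, minus strand) the capitals are the TEAD cores and, as ATTGG, a box for the factor NF-Y read on the opposite strand. In ANKRD1 (chr10:90921088-90921337, minus strand) they are the TEAD cores.
CCN2: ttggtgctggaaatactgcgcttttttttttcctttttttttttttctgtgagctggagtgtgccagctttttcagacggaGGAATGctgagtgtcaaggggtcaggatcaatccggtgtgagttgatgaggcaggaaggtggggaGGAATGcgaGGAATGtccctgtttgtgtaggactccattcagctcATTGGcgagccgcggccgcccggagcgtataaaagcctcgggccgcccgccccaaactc
ANKRD1: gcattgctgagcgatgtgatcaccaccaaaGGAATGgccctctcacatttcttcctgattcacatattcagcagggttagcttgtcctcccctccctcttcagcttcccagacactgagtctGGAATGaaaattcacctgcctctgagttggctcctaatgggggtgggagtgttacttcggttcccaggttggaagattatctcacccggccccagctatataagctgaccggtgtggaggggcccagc
Of 14 YAP/TAZ targets with a promoter in the table, 6 (42.9%) held the TEAD core in the window from 250 bases before to 50 after the start, beside 11.6% of the 14250 promoters of measured genes. Over all 1016 promoters of genes called lower in siYT the share was 11.8%, and over the 482 where siYT alone was at least 1 below siNC it was 10.996%, both near that of all promoters.

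Among 21 Hippo components, TEAD and VGLL factors, 5 were called lower and 2 higher, and 2 of the 5 are the siRNA targets themselves. VGLL3, a cofactor of TEAD, was at 7.999 in siYT and 10.31 in siNC+8Br-cAMP, and WWC1, an upstream member of the pathway, was at 9.61 in siYT and 10.88 in siNC+8Br-cAMP. VGLL4, which competes with YAP for TEAD, was higher in siYT, at 8.56 in siYT and 6.72 in siNC+8Br-cAMP. The kinase LATS1, at 10.85 in siYT and 9.98 in siNC+8Br-cAMP, and WWC2, at 7.60 in siYT and 8.46 in siNC+8Br-cAMP, stayed within 1. The median of the list was -0.29.

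Of the 19 lists, mitosis was the one with every measured member called. All 25 measured mitosis genes were called lower in siYT, with a median difference of -2.95 and a range from -4.28 to -1.58. Of 23 DNA replication genes, 18 were called lower and none higher, with a median of -1.55. CCNA2, the cyclin of S phase and entry into mitosis, was at 9.37 in siYT, 13.64 in siNC+8Br-cAMP, 9.09 in siYT+8Br-cAMP and 14.14 in siNC. AURKA, a kinase of the spindle poles, was at 7.90 in siYT, 11.93 in siNC+8Br-cAMP, 8.19 in siYT+8Br-cAMP and 11.68 in siNC, and TTK, a kinase of the spindle checkpoint, was at 7.34 in siYT and 11.13 in siNC+8Br-cAMP. DLGAP5, a spindle protein, was at 7.27 in siYT, 11.42 in siNC+8Br-cAMP, 6.39 in siYT+8Br-cAMP and 11.28 in siNC, and NDC80, which links kinetochores to microtubules, was at 5.88 in siYT and 9.27 in siNC+8Br-cAMP. In CCNA2, AURKA and DLGAP5 both siNC arrays were high and both siYT arrays low. MKI67, a nuclear protein of cycling cells, was at 8.81 in siYT, 11.07 in siNC+8Br-cAMP, 7.02 in siYT+8Br-cAMP and 12.07 in siNC. RRM2, a subunit of ribonucleotide reductase, was at 8.21 in siYT, 11.82 in siNC+8Br-cAMP, 5.56 in siYT+8Br-cAMP and 12.79 in siNC, and CDC6, which loads the replicative helicase, was at 5.71 in siYT and 9.23 in siNC+8Br-cAMP. TK1 and TYMS, which supply thymidine nucleotides, had differences of -3.03 and -3.002, and MCM3, a helicase subunit, one of -2.15. GINS1, at 6.74 in siYT and 7.63 in siNC+8Br-cAMP, and GINS2, at 6.41 in siYT and 6.97 in siNC+8Br-cAMP, members of the replicative helicase complex, were among the 5 that missed the threshold. Relative to siNC, the mitosis list had a median of -3.63 in siYT and -0.76 in siNC+8Br-cAMP, and the DNA replication list one of -2.26 in siYT and -0.88 in siNC+8Br-cAMP.

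DLGAP5 is shown for the element TTTGAA, through which many mitotic genes are held down outside cell division, and for CCAAT, the box of NF-Y. Its window (chr14:55191586-55191835, minus strand, GRCh38.p14, RefSeq) holds TTTGAA 138 and 109 bases and CCAAT 87 and 22 bases before the start, in capitals on either strand, as is 1 match to TGACG at 216 bases.
DLGAP5: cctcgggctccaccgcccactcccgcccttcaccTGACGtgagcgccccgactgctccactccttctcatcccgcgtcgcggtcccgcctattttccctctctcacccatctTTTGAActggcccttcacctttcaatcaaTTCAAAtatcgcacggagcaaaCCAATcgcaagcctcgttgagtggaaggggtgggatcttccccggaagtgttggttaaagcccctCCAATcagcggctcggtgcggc
CCNA2 and NDC80 held no TTTGAA in the 250 bases before their starts, whereas MKI67 held it 47 and 29 bases before its start. In the window from 250 bases before to 50 after the start, 16 of 22 mitosis promoters (72.7%) held TTTGAA and 17 (77.3%) CCAAT. The shares of all promoters were 12.01% and 36.4%. Among 21 DNA replication promoters, 1 (4.76%) held TTTGAA and 13 (61.9%) CCAAT.

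Of 17 cell cycle inhibitors and p53 targets measured, 2 were called higher and 1 lower, with a median of 0.22. That is 3 of the 13 past the level filter, near the 24.3% of all genes past it. CDKN1A, the inhibitor p21, was at 14.15 in siYT, 13.74 in siNC+8Br-cAMP, 13.58 in siYT+8Br-cAMP and 13.30 in siNC, within 1 on all 4 arrays. GDF15, a stress-induced cytokine, was at 13.17 in siYT, 15.07 in siNC+8Br-cAMP, 15.97 in siYT+8Br-cAMP and 12.44 in siNC, and TP53INP1, a p53-induced nuclear protein, was at 8.18 in siYT, 6.53 in siNC+8Br-cAMP, 7.28 in siYT+8Br-cAMP and 5.41 in siNC. SESN2 and SESN1 are stress-induced regulators of growth signalling. SESN2 was at 8.12 in siYT and 7.10 in siNC+8Br-cAMP, a difference of 1.02 that lies at the threshold, and SESN1 was at the same level in both, 8.69 in siYT and 8.57 in siNC+8Br-cAMP. RRM2B and the death receptor FAS missed the threshold with differences of 0.80 and 0.67.

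The cAMP and CREB responsive genes did not all lie higher in siNC+8Br-cAMP. Of 20 measured, 6 were called lower in siYT and 3 higher, with a median of -0.13. NR4A3, an orphan nuclear receptor induced by cAMP, was at 3.45 in siYT, 8.20 in siNC+8Br-cAMP, 8.61 in siYT+8Br-cAMP and 2.91 in siNC. Its relative NR4A2 was at 4.90 in siYT, 7.35 in siNC+8Br-cAMP, 10.28 in siYT+8Br-cAMP and 3.09 in siNC, and NR4A1 was at 5.87 in siYT, 6.81 in siNC+8Br-cAMP, 8.67 in siYT+8Br-cAMP and 5.35 in siNC. All 3 were higher on both 8Br-cAMP arrays than on both arrays without it, though NR4A1 differed between the single treatments by less than 1. PDE4D, a phosphodiesterase that degrades cAMP, was at 8.22 in siYT, 11.69 in siNC+8Br-cAMP, 12.23 in siYT+8Br-cAMP and 7.71 in siNC, and PDE4B, at 6.29 in siYT and 7.005 in siNC+8Br-cAMP, was not called. DUSP1, a phosphatase of MAP kinases, was at 11.27 in siYT and 14.81 in siNC+8Br-cAMP, beside 12.92 with neither treatment. CREB5, a relative of CREB, was higher in siYT, at 12.58 in siYT, 10.34 in siNC+8Br-cAMP, 11.56 in siYT+8Br-cAMP and 11.83 in siNC, with siNC+8Br-cAMP the lowest array.

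NR4A3 is shown for TGACG, the short form of the cAMP response element TGACGTCA. Its window (chr9:99821635-99821884, plus strand, GRCh38.p14, RefSeq) holds 4 matches, 109, 91, 83 and 25 bases before the start, and 1 TEAD core at 73 bases. All are in capitals, on either strand.
NR4A3: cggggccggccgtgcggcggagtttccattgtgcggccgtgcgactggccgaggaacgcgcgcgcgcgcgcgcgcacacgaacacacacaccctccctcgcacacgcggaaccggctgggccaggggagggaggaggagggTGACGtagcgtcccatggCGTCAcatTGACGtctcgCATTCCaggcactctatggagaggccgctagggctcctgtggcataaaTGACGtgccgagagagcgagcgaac
In the window from 250 bases before to 50 after the start, 12 of 17 promoters of the list (70.6%) held the short form. The share of all promoters was 29.5%. The full element, which contains the short form, was in 3 (17.6%), beside 2.62%. The full element was not particular to this list. Of 22 mitosis promoters, 4 (18.2%) held it and 10 (45.5%) the short form. Of 21 DNA replication promoters, 2 (9.52%) held the full element and 10 (47.6%) the short form. Among 1016 promoters of genes called lower in siYT, 37.5% held TGACG and 43.2% CCAAT. The share with TGACG was 32.3% for the 155 where siNC+8Br-cAMP alone was at least 1 above siNC and 38.0% for the 482 where siYT alone was at least 1 below it. Among 858 promoters of genes called higher, 8.28% held TTTGAA and 0.932% held AAGGTCA, the core for the factor NR5A1 and its relatives, beside 12.01% and 3.11% of all.

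**Figure D3:**
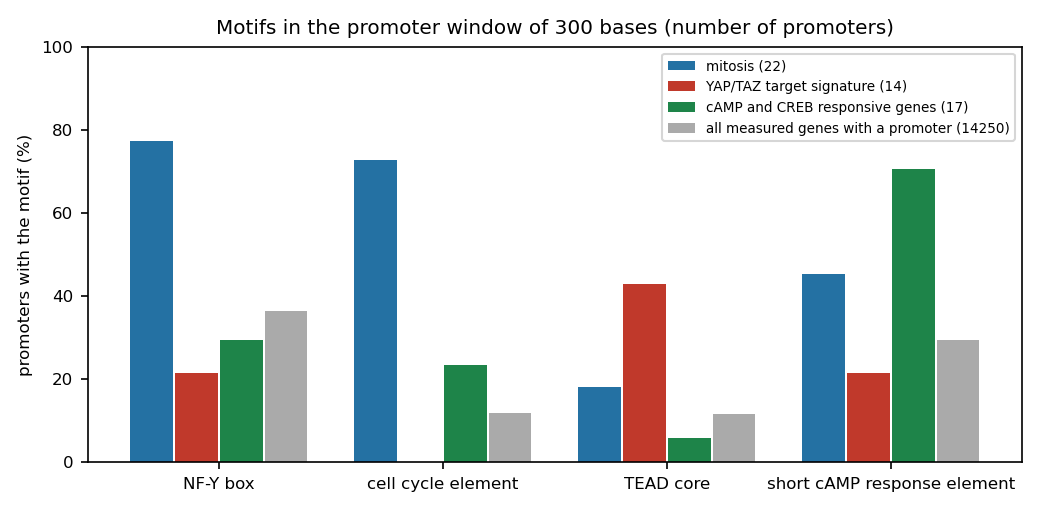
Share of promoter windows (percent, 250 bases before to 50 after the start) that hold each of 4 motifs on either strand; blue bars are the mitosis list, red the YAP/TAZ targets, green the cAMP and CREB responsive genes and grey all 14250 promoters of measured genes. The mitosis list stands at 72.7% for the cell cycle element and 77.3% for the NF-Y box, beside 12.01% and 36.4% over all promoters.

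Of 22 steroid synthesis genes, 4 were called lower in siYT, 2 higher and 3 lay at the same level, with a median of 0.01. STAR, which brings cholesterol into mitochondria and so starts steroid synthesis, was at 10.38 in siYT, 14.01 in siNC+8Br-cAMP, 15.90 in siYT+8Br-cAMP and 9.84 in siNC. STAR was 12.3-fold lower in siYT than in siNC+8Br-cAMP. HSD3B2, which converts pregnenolone to progesterone, was at 5.80 in siYT, 8.99 in siNC+8Br-cAMP, 10.12 in siYT+8Br-cAMP and 4.17 in siNC. AKR1C1, which inactivates progesterone, was at 9.84 in siYT and 11.74 in siNC+8Br-cAMP. HSD11B1, which makes active glucocorticoid from its inactive form, was higher in siYT, at 9.27 in siYT, 5.09 in siNC+8Br-cAMP, 9.997 in siYT+8Br-cAMP and 5.38 in siNC, and both siYT arrays were high. STARD4, a carrier of cholesterol in the cytosol, was at 9.45 in siYT and 7.90 in siNC+8Br-cAMP. AKR1C3 and SRD5A1 missed the threshold with differences of -0.74 and 0.85. STAR and HSD3B2 were thus higher with 8Br-cAMP than with knockdown, whereas CYP19A1 and CYP11A1 of the same pathway lay at the same level.

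CYP19A1, the aromatase that makes estradiol, was at 14.26 in siYT, 14.26 in siNC+8Br-cAMP, 17.56 in siYT+8Br-cAMP and 5.04 in siNC. The single treatments differed by 0.001 and each lay 9.23 above siNC, where the level was under the filter, so that distance depends on the background. CYP11A1, the enzyme that cleaves the side chain of cholesterol, was at 8.82 in siYT, 8.94 in siNC+8Br-cAMP, 12.84 in siYT+8Br-cAMP and 4.25 in siNC. It lay 4.56 above siNC in siYT and 4.69 in siNC+8Br-cAMP, and its siNC value was likewise under the level filter. In both genes siYT+8Br-cAMP lay above either single treatment, by 3.29 and 4.03 over siYT. HSD17B4, a peroxisomal dehydrogenase that acts on estradiol and fatty acids, was at 11.68 in siYT, 11.54 in siNC+8Br-cAMP, 12.64 in siYT+8Br-cAMP and 10.49 in siNC.

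A gene counted as at the same level when the single treatments differed by less than 0.25, both lay at least 1 from siNC on the same side, and the highest of these 3 arrays reached the level filter. This held for 105 genes above siNC (0.594%) and 81 below it (0.458%). Below siNC the filter could be met by siNC alone, so some of the 81 had both single treatments under it. Examples are THSD1, at 4.99 in siYT and 4.96 in siNC+8Br-cAMP, and STK32C, at 4.99 in siYT and 4.86 in siNC+8Br-cAMP. In such genes the shared level depends on the background. A siNC value that was off by itself would place a gene here, and with 1 siNC array that was not tested. Of the 105, 8 were at least 2 above siNC on both arrays, and of the 81, 7 were at least 2 below. With both treatments, 15 of the 105 lay at least 1 further from siNC than the mean of the single treatments, 86 within 1 and 4 at least 1 nearer. Of the 81, 31 lay at least 1 further, 50 within 1 and none nearer, with median further distances of 0.34 for the 105 and 0.68 for the 81.

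Above siNC, ID2, an inhibitor of basic helix-loop-helix factors, was at 13.46 in siYT, 13.54 in siNC+8Br-cAMP, 14.25 in siYT+8Br-cAMP and 8.84 in siNC. SPRY1, an inhibitor of receptor tyrosine kinase signalling, was at 12.62 in siYT, 12.46 in siNC+8Br-cAMP, 12.19 in siYT+8Br-cAMP and 9.10 in siNC, and PDK2, a kinase that inhibits pyruvate dehydrogenase, was at 11.53 in siYT, 11.74 in siNC+8Br-cAMP, 12.02 in siYT+8Br-cAMP and 8.97 in siNC. In SPRY1 and PDK2 the array with both treatments lay within 0.5 of either single one. SLC1A3, a glutamate transporter, was at 9.29 in siYT, 9.51 in siNC+8Br-cAMP, 12.55 in siYT+8Br-cAMP and 6.72 in siNC, where the array with both treatments was over 3 above the single ones. ATOH8, a helix-loop-helix factor, MGST2, a microsomal glutathione transferase, GABARAPL1, an autophagy protein, and TMT1A, a methyltransferase, complete the 10 with the greatest distance. Their siYT levels were 7.34, 9.49, 12.14 and 7.22, beside siNC+8Br-cAMP levels of 7.56, 9.73, 12.36 and 7.18.

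Below siNC, PODXL, a sialomucin of the cell surface, was at 10.03 in siYT, 10.28 in siNC+8Br-cAMP, 8.87 in siYT+8Br-cAMP and 13.41 in siNC. FOSL1, a subunit of the factor AP-1, was at 10.95 in siYT, 11.05 in siNC+8Br-cAMP, 8.98 in siYT+8Br-cAMP and 14.09 in siNC, and DUSP5, a nuclear phosphatase of ERK, was at 9.26 in siYT, 9.14 in siNC+8Br-cAMP, 8.34 in siYT+8Br-cAMP and 11.82 in siNC. NEDD4L, a ubiquitin ligase, was at 9.77 in siYT, 9.68 in siNC+8Br-cAMP, 7.69 in siYT+8Br-cAMP and 12.02 in siNC. PSAT1, an enzyme of serine synthesis, was at 14.38 in siYT, 14.50 in siNC+8Br-cAMP, 11.21 in siYT+8Br-cAMP and 16.43 in siNC, and the array with both treatments was over 3 below either. ELOVL2, which elongates fatty acids, was at 7.87 in siYT and 7.89 in siNC+8Br-cAMP, CDC42EP3, an effector of the GTPase CDC42, at 8.87 in siYT and 8.98 in siNC+8Br-cAMP, and UACA at 10.59 in siYT and 10.34 in siNC+8Br-cAMP. KRTAP2-1 and METTL27 were the last 2 of the 10, both under the level filter in the single treatments.

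**Figure D4:**
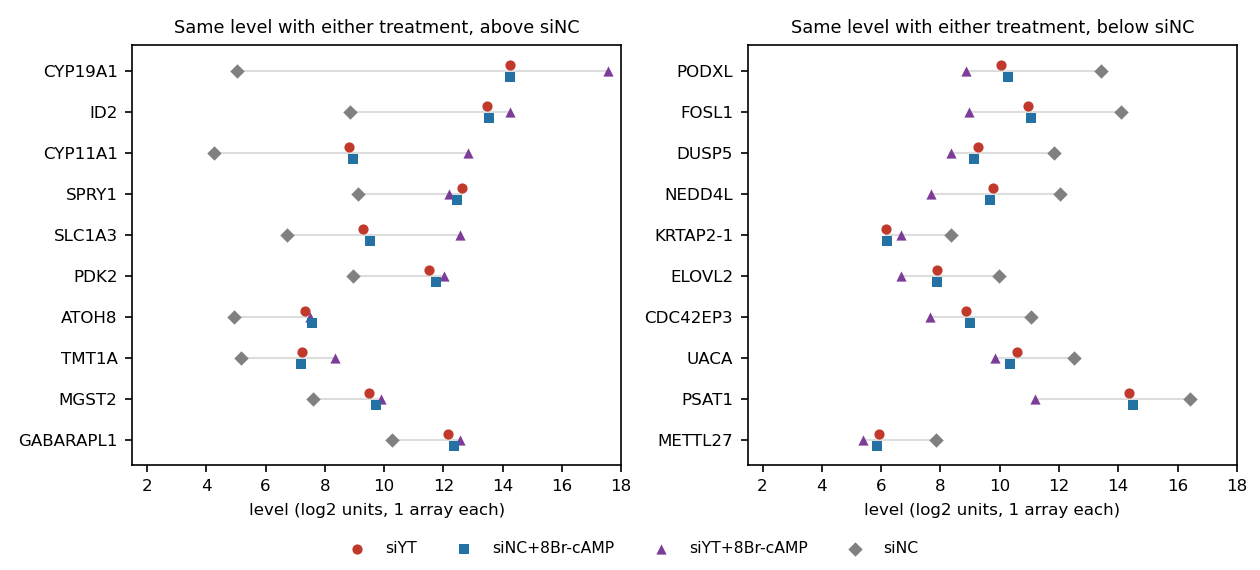
Levels of the 10 genes at the same level with the greatest distance above siNC (left) and below it (right), in deposited log2 units, 1 array each; circles are siYT, squares siNC+8Br-cAMP, triangles siYT+8Br-cAMP and diamonds siNC. Circle and square coincide by the rule, and the triangle lies over 1 further from the diamond for CYP19A1, CYP11A1, SLC1A3 and TMT1A on the left and for PODXL, FOSL1, NEDD4L, ELOVL2, CDC42EP3 and PSAT1 on the right.

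Granulosa identity genes and gonadotropin receptors gave 3 genes called higher and 2 lower of 19, with a median of 0.18, beside 5.99% of all genes called higher and 6.91% lower. Of the 19, 10 reached the level filter. FSHR, the FSH receptor, was at 6.31 in siYT, 4.23 in siNC+8Br-cAMP, 6.63 in siYT+8Br-cAMP and 3.82 in siNC. It was slightly over the level filter on both siYT arrays and under it on both siNC arrays. No array reached 6.95, the stricter level from the negative controls, so the difference depends on the background. NR5A1, a nuclear receptor that drives steroid genes, stayed between 5.42 and 6.35. INHBA, a subunit of activins, was at 11.09 in siYT, 13.39 in siNC+8Br-cAMP, 15.08 in siYT+8Br-cAMP and 11.36 in siNC. FST, which binds and neutralises activins, was at 10.51 in siYT, 11.95 in siNC+8Br-cAMP, 10.33 in siYT+8Br-cAMP and 13.79 in siNC, lower than siNC on the other three arrays. GJA1, the gap junction protein connexin 43, was at 14.50 in siYT, 13.36 in siNC+8Br-cAMP, 15.67 in siYT+8Br-cAMP and 10.86 in siNC, where siNC was the low array. RUNX1, a transcription factor, was at 13.97 in siYT and 12.58 in siNC+8Br-cAMP. GATA6 and WT1 missed the threshold with differences of 0.98 and -0.71.

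Of 19 genes of ovulation and cumulus expansion, 5 were called higher and 5 lower, with a median of 0.35. Of the 19, 13 had a difference above 0, beside 9495 of all 17687 genes. RUNX1, given above, had the highest difference of the list, 1.38. The called members described next have the largest differences by size and are all lower ones. EDN2, a vasoconstrictor peptide of the ovulating follicle, was at 3.16 in siYT, 8.15 in siNC+8Br-cAMP, 3.28 in siYT+8Br-cAMP and 3.84 in siNC, so siNC+8Br-cAMP alone was high. SNAP25, a protein of vesicle release, was at 6.55 in siYT, 9.08 in siNC+8Br-cAMP, 8.35 in siYT+8Br-cAMP and 6.35 in siNC. ADAMTS1, a protease that cleaves versican, was at 7.94 in siYT, 10.03 in siNC+8Br-cAMP, 9.26 in siYT+8Br-cAMP and 13.43 in siNC, with siNC the highest array. HAS2, which makes the hyaluronan of the cumulus matrix, was at 4.70 in siYT, 6.30 in siNC+8Br-cAMP, 7.93 in siYT+8Br-cAMP and 4.29 in siNC. PGR, the progesterone receptor, at 7.67 in siYT and 6.88 in siNC+8Br-cAMP, and the protease CTSL, at 13.44 in siYT and 13.09 in siNC+8Br-cAMP, were not called.

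Matrix genes lay mostly higher in siYT. Of 25 measured, 9 were called higher and 3 lower, with a median of 0.69. A difference above 0 was seen in 19 of them, beside 9495 of all 17687 genes. FN1, fibronectin, was at 17.25 in siYT, 14.14 in siNC+8Br-cAMP, 16.48 in siYT+8Br-cAMP and 13.87 in siNC, and it was 8.62-fold higher in siYT than in siNC+8Br-cAMP. FBN1, which forms microfibrils, was at 12.57 in siYT and 10.75 in siNC+8Br-cAMP. THBS1, thrombospondin 1, was lower, at 12.47 in siYT, 15.01 in siNC+8Br-cAMP, 11.04 in siYT+8Br-cAMP and 16.35 in siNC, with both siNC arrays high. The proteoglycan BGN and the collagen COL5A2 missed the threshold with differences of 0.96 and 0.80. The list had a median of 1.10 for siYT minus siNC and 0.02 for siNC+8Br-cAMP minus siNC.

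Among 21 genes of the actin cytoskeleton and focal adhesions, 5 were called higher in siYT and none lower, with a median of 0.60, beside 5.99% of all genes called higher and 6.91% lower. Of the 21, 20 reached the level filter, so the number called is near the 24.3% of all genes past it. ACTA2, smooth muscle actin, was at 11.04 in siYT, 9.49 in siNC+8Br-cAMP, 9.14 in siYT+8Br-cAMP and 11.08 in siNC. MYH9, a nonmuscle myosin heavy chain, was at 13.55 in siYT, 12.17 in siNC+8Br-cAMP, 12.18 in siYT+8Br-cAMP and 13.63 in siNC, and CAV1, of the caveolae, was at 13.83 in siYT and 12.44 in siNC+8Br-cAMP. In ACTA2 and MYH9, siYT lay close to siNC and both 8Br-cAMP arrays were low. TPM4, a tropomyosin, and CNN3, a calponin, were just past the threshold at 1.04 and 1.02, and CALD1 and ACTB just short of it at 0.99 and 0.91. The list had a median of -0.26 for siYT minus siNC and -0.99 for siNC+8Br-cAMP minus siNC.

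**Figure D5:**
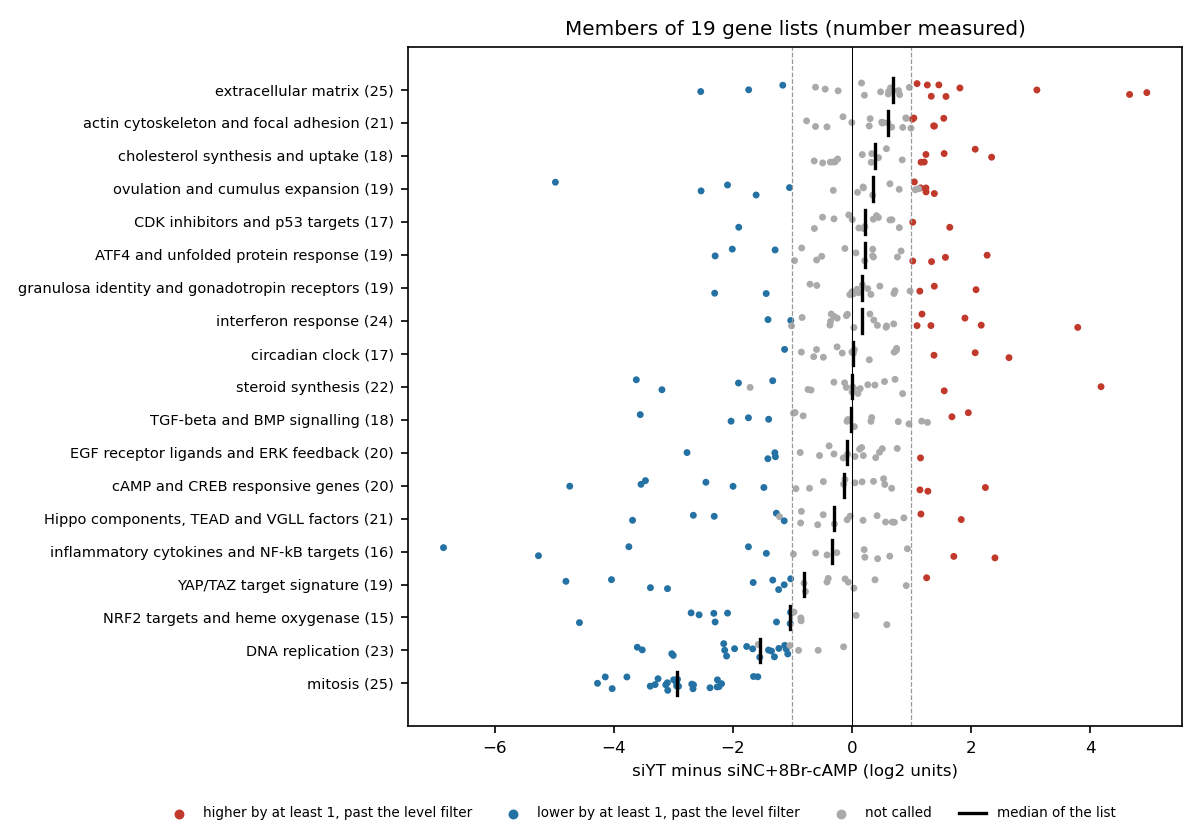
Difference siYT minus siNC+8Br-cAMP (log2 units, horizontal axis) of each measured member of 19 gene lists, with the number measured in brackets; red points were called higher, blue points lower and grey points neither, and black bars are list medians. All 25 mitosis points lie left of -1, and the list medians run from 0.69 for the matrix to -2.95 for mitosis.

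Of 18 genes of TGF-beta and BMP signalling, 2 were called higher and 4 lower, with a median of -0.01. TGFBR1, the type I receptor, was at 9.40 in siYT, 12.96 in siNC+8Br-cAMP, 11.10 in siYT+8Br-cAMP and 10.99 in siNC. TGFB3, a ligand, was at 4.69 in siYT, 6.43 in siNC+8Br-cAMP, 10.60 in siYT+8Br-cAMP and 3.54 in siNC, and ID1, a target of BMP signals, was at 9.90 in siYT and 11.93 in siNC+8Br-cAMP. SMAD7, which inhibits these receptors, was higher at 9.75 in siYT and 7.79 in siNC+8Br-cAMP, as was LTBP1, which holds latent ligand in the matrix, at 10.58 in siYT and 8.90 in siNC+8Br-cAMP. TGFBR2 and TGFBR3 had differences of 0.96 and -0.96 and were not called. ID2 of this list lay at the same level, as given above, whereas ID1 did not.

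Inflammatory cytokines and targets of NF-kB had 5 of 16 members called lower and 2 higher, with a median of -0.34. Besides IL11 and IL6, CCL20, a chemokine, was at 6.22 in siYT, 9.97 in siNC+8Br-cAMP, 3.49 in siYT+8Br-cAMP and 9.03 in siNC, and LIF, another cytokine of the IL6 family, was at 7.73 in siYT and 9.47 in siNC+8Br-cAMP. VCAM1, an adhesion molecule for leukocytes, was higher, at 11.29 in siYT, 8.89 in siNC+8Br-cAMP, 8.08 in siYT+8Br-cAMP and 11.39 in siNC, with both 8Br-cAMP arrays low. IL1B and the NF-kB subunit RELB missed the threshold, with differences of -0.98 and 0.93.

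Among 20 EGF receptor ligands and genes of ERK feedback, 4 were called lower, 1 higher and 3 lay at the same level (SPRY1, FOSL1 and DUSP5), with a median of -0.09. Of the 20, 17 reached the level filter, so the number called is not far from the 24.3% of all genes past it. The ligand NRG1 was at 9.89 in siYT and 12.66 in siNC+8Br-cAMP, and its receptor ERBB3 was at 4.86 in siYT, 6.27 in siNC+8Br-cAMP, 4.91 in siYT+8Br-cAMP and 8.44 in siNC. The ligand TGFA was lower by size, with a difference of -1.30, and the ligand BTC was higher, with 1.15. SPRY2, of the same family as SPRY1, was at 7.18 in siYT and 8.46 in siNC+8Br-cAMP and was called lower. SPRY4, of that family as well, and SPRED1, an inhibitor of RAS signalling, had differences of -0.87 and 0.76 and were not called.

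NRF2 is the factor that induces genes against oxidative stress, and its targets lay mostly lower in siYT. Of 15 NRF2 targets, 10 were called lower in siYT and none higher, with a median of -1.04. A difference above 0 was seen in 2 of them, beside 9495 of all 17687 genes. HMOX1, heme oxygenase, was at 6.37 in siYT, 10.95 in siNC+8Br-cAMP, 4.86 in siYT+8Br-cAMP and 12.13 in siNC. NQO1, a quinone reductase, was at 13.96 in siYT, 16.52 in siNC+8Br-cAMP, 13.75 in siYT+8Br-cAMP and 16.36 in siNC, and SLC7A11, the cystine transporter, was at 11.97 in siYT, 14.27 in siNC+8Br-cAMP, 12.21 in siYT+8Br-cAMP and 14.22 in siNC. In these 3 genes both siNC arrays were higher than both siYT arrays. AKR1B10, an aldo-keto reductase, and SRXN1, sulfiredoxin, had differences of -2.70 and -2.32. ME1 and the ferritin FTL, at -0.97 and -0.86, were not called. The list had a median of -1.14 for siYT minus siNC and 0.13 for siNC+8Br-cAMP minus siNC.

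Cholesterol synthesis and uptake had 6 of 18 genes called higher and none lower, with a median of 0.39. LSS, which forms lanosterol, was at 9.27 in siYT, 6.93 in siNC+8Br-cAMP, 7.74 in siYT+8Br-cAMP and 8.12 in siNC. SREBF2, the factor that drives the pathway, was at 11.27 in siYT, 9.20 in siNC+8Br-cAMP, 9.90 in siYT+8Br-cAMP and 9.65 in siNC. TM7SF2 and DHCR7, late enzymes of the pathway, had differences of 1.55 and 1.21. INSIG1, which retains that factor in the endoplasmic reticulum, was at 8.32 in siYT and 7.07 in siNC+8Br-cAMP. HMGCS1, an early enzyme, lay at the same level in both single treatments, 7.68 in siYT and 7.51 in siNC+8Br-cAMP, below siNC at 8.73. SCARB1, the receptor for high-density lipoprotein, and CYP51A1 missed the threshold with differences of 0.84 and 0.58.

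Of 19 genes of ATF4 and the unfolded protein response, 4 were called higher, 3 lower and 2 lay at the same level (PSAT1 and TRIB3), with a median of 0.21. SLC7A11, given with the NRF2 targets, counts in this list too and had its largest difference by size, -2.30. DDIT3, a factor induced by stress of the endoplasmic reticulum, was at 9.21 in siYT, 6.93 in siNC+8Br-cAMP, 5.80 in siYT+8Br-cAMP and 8.81 in siNC, with both 8Br-cAMP arrays low. HERPUD1, of the degradation of misfolded proteins, was at 13.41 in siYT and 11.84 in siNC+8Br-cAMP, and XBP1, a factor of the same response, at 11.32 in siYT and 9.98 in siNC+8Br-cAMP. SLC3A2, the heavy chain of amino acid transporters, was lower, at 14.99 in siYT and 16.998 in siNC+8Br-cAMP. TRIB3, a pseudokinase, was at 8.84 in siYT and 8.78 in siNC+8Br-cAMP. The chaperone HSPA5, with a difference of -0.96, and SDF2L1, with -0.84, were not called.

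The interferon response list gave 6 of 24 genes called higher and 2 lower, with a median of 0.17. GBP2, a guanylate-binding protein, was at 12.22 in siYT, 8.42 in siNC+8Br-cAMP, 11.70 in siYT+8Br-cAMP and 8.15 in siNC, high on both siYT arrays. IRF1, a transcription factor, was at 8.83 in siYT, 6.65 in siNC+8Br-cAMP, 4.59 in siYT+8Br-cAMP and 8.13 in siNC. BST2, which tethers budding viruses, was at 8.14 in siYT, 6.24 in siNC+8Br-cAMP, 8.81 in siYT+8Br-cAMP and 4.85 in siNC, and IFIH1, a sensor of viral RNA, was at 10.53 in siYT and 9.20 in siNC+8Br-cAMP. ISG15, a ubiquitin-like protein, was lower, at 8.17 in siYT and 9.58 in siNC+8Br-cAMP. OAS3 and IFI6 were not called, with differences of -0.84 and 0.70.

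Of 17 circadian clock genes, 3 were called higher and 1 lower, with a median of 0.03. These 4 are of 13 past the level filter, beside 24.3% of all genes past it. BHLHE41, a repressor, was at 12.85 in siYT, 10.21 in siNC+8Br-cAMP, 10.80 in siYT+8Br-cAMP and 11.05 in siNC, and PER3, a period protein, was at 7.54 in siYT and 5.47 in siNC+8Br-cAMP. CIART, a repressor of the clock, had a difference of 1.38, and NPAS2, an activator of it, one of -1.13. NR1D1, a nuclear receptor that represses BMAL1, lay at the same level in both, 8.87 in siYT and 8.85 in siNC+8Br-cAMP, above siNC at 7.29. BMAL1 and BHLHE40 were not called, with differences of -0.85 and 0.75.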

How the data were processed

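Total RNA of KGN cells was profiled on 4 Clariom S Human arrays, 1 per group. The authors deposited log2 values. Per the labels these are RMA values of the Affymetrix Expression Console, and RMA corrects background, normalizes the arrays and summarises the probes of a set. Software versions and the genome build are not given in the sources used here. These log2 values ran from 1.39 to 19.36. Some exceed 16, the bits of a scanner, so the authors may have rescaled them further. Folds are those of the deposited units.

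Of 24351 probe sets, 17709 named 1 gene, and all of these matched RefSeq by gene ID and symbol. The 20 genes with several probe sets were averaged, which gave 17687 genes. The siNC+8Br-cAMP value was subtracted from the siYT value, and genes were called by size (at least 1) and level (at least 6.22). With 1 array per group there is no test and no p-value, and the number of arrays limits the precision. Control probe sets and 3739 unnamed transcript clusters were kept apart. The named genes are the siRNA targets, the 12 highest and 12 lowest genes, the 10 genes at the same level on each side and the 6 on opposite sides of siNC furthest from it. Up to 5 members of each of 19 lists, 2 more that were not called, any at the same level and genes set by name were added. The lists, the members and the named genes were chosen with earlier results of these data known. Promoters are the RefSeq windows (GRCh38.p14), found for 14250 genes. Alternatives used limma 3.58.1 in R 4.3.3, and the calling was run on simulated data with known differences. The simulated noise was far below the SD of 1.42 between negative controls, so that run does not measure false calls. Other steps used Python 3.11.15 with pandas 2.3.3.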

Additional observations from a re-analysis of the deposited data

Results flagged for a closer look

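The comparison of named genes leaves out 3739 transcript clusters that the annotation used here does not name. Of these, 121 were called higher in siYT than in siNC+8Br-cAMP and 147 lower, with differences from -3.98 to 3.24. By the same rule 12.9% of the 17687 named genes and 10.3% of the 612 negative controls were called. Both are larger shares than among the clusters. In 65 clusters the siYT array was higher than siNC+8Br-cAMP and at least 1 above siNC. In 31 clusters siYT was lower than siNC+8Br-cAMP and siNC+8Br-cAMP was at least 1 above siNC. Among the 17687 named genes, 588 of the first kind had siNC+8Br-cAMP within 1 of siNC, and 191 of the second had siYT within 1. These parts alone are larger shares than 65 and 31 of 3739 clusters. The clusters are listed here because they lie outside the comparison of named genes and above the siNC control, not because calls were frequent among them. No gene names are attached to them and they were not examined further. Samples far from the rest of a group could not be sought with 1 array per group.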

How the results depend on the processing

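No paired analysis was possible because each group is 1 array, and no array could be left out. With a size of at least 1.5 in place of 1, 438 genes were called higher in siYT and 556 lower. With a band of 0.5 in place of 0.25, 337 genes were at the same level and moved from siNC, in place of 186. Under the other 7 alternatives (median centring, cyclic loess, quantile normalization, 32 added on the linear scale, no level filter, a level filter of 6.95 from the negative controls, and the highest probe set of a gene), 866 to 1471 genes were called higher and 1004 to 1459 lower. The share of higher calls ran from 45.2% to 50.3%, beside 46.4%, and the median difference of all genes from -0.02 to 0.06. No called named gene changed sign. The list medians near 0 did: steroid synthesis was at -0.11 with cyclic loess and -0.07 with quantile normalization, and TGF-beta and BMP signalling at 0.04 with quantile normalization. Cyclic loess took SESN2 to 0.99 and CALD1 to 1.01, and quantile normalization took CNN3 to 0.99, GATA6 to 1.03, CALD1 to 1.07 and TGFBR2 to 1.02, across the size of 1. The added 32 took HAS2 to -0.94, SESN2 to 0.88, ERBB3 to -0.84 and BTC to 0.93. The stricter level filter left FSHR, HAS2, TGFB3 and ERBB3 uncalled. Of 25 named genes at the same level, 23 to 25 stayed within the rule. Signal near background limits genes under 6.22, and the filter does not remove all of it. Over all 612 negative controls the difference between the arrays had an SD of 1.42, and 63 of them (10.3%) met the call rule.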
